A study of Mus musculus with 6 samples.

Results

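The 10 AP-1 family genes Fos, Fosb, Fosl1, Fosl2, Jun, Junb, Jund, Batf, Batf3 and Atf3 were examined for chromatin accessibility in mouse blood leukocytes. A peak was assigned to a gene where its summit lay in the gene body or within 10 kb of an annotated start of that gene. Peaks of the 6 lists that shared 1 bp were merged into regions, and 33 of 62876 regions belonged to these genes. Of the 33, 27 had a peak in all 6 libraries, as did 23970 regions in the whole series. The FOS members held 15 regions, the JUN members 7, the BATF members 5 and Atf3 6.

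ATAC-seq was used to read accessibility: the Tn5 transposase cuts open DNA and leaves sequencing adapters at the cut. About 50000 leukocytes per library were taken from peripheral blood after red cell lysis. The 3 control libraries came from C57BL/6J male mice kept in normal air, and the 3 HADA libraries from such mice in high-altitude de-acclimatization. HADA here means the period after 28 days in a hypobaric chamber simulating 6000 m, on return to normal oxygen. How long after the return these libraries were taken is not given in the labels, and the sources name more than 1 recovery time. The mice were bought at 8 weeks of age and no allele or drug was part of either group. The comparison asked whether open chromatin at these genes differed between the groups. Cells were not sorted, so each value is an average over blood cell types, and fewer cells of a type cannot be told apart from less open chromatin per cell.

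AP-1 is a dimer of basic leucine zipper proteins that binds the sequence TGACTCA. FOS proteins pair with JUN proteins, since they form no stable homodimers, while JUN proteins can also pair among themselves. Most of the FOS and JUN genes are immediate early genes, switched on within minutes of a stimulus by factors already bound to them, and the kinases of the MAP kinase cascades act on both the genes and the proteins. BATF and BATF3 lack a transactivation domain, pair with JUN proteins and join IRF4 or IRF8 on DNA in lymphocytes and dendritic cells. ATF3 is a stress-induced member that pairs with JUN proteins and often represses.

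Sequences of the GRCm39 build are shown for stretches picked for an exact motif or for the lists with a peak, and no test rests on them. In the first 3, read 310 to 161 bases upstream of the gene start along the gene's strand, capitals mark an exact serum response element (the CArG box, by which serum response factor binds) in Fos and Fosb and an exact cAMP response element (TGACGTCA) in Jund. They are Fos at chr12:85520348-85520497 (plus strand), Fosb at chr7:19044137-19044286 (minus strand) and Jund at chr8:71151289-71151438 (plus strand).
Fos: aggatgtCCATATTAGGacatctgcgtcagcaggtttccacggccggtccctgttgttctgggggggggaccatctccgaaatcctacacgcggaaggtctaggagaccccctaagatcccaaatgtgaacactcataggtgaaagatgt
Fosb: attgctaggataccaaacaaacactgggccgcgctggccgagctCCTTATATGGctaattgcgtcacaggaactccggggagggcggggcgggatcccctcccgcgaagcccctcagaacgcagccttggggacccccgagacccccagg
Jund: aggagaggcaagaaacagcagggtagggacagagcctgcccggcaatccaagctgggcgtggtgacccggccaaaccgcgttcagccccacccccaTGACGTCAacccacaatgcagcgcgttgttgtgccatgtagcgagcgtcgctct

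The serum response element began 303 bases upstream of the Fos start and 266 bases upstream of the Fosb start, and the cAMP response element began 214 bases upstream of the Jund start. Of 21757 coding genes, 2.01% had an exact serum response element and 1.42% an exact cAMP response element in the 350 bases upstream of the start, on either strand. Around the summits, within 100 bp and on both strands, a serum response element was found in 2 of the 33 AP-1 gene regions (the Fos and Fosb promoters), against 0.946% of all regions. No AP-1 gene region had TGACGTCA within that distance, against 0.587% of all regions.

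The AP-1 site itself (TGACTCA or, on the other strand, TGAGTCA) was found near a summit in 1 of the 33 regions, or 3.03%, against 4.04% of all regions. That region lay 6762 bp upstream of the Fosb start at chr7:19050244-19050962, with the site 32 bp from the summit. It is shown over 121 bases around the summit (plus strand, chr7:19050678-19050798) because it also had the lowest log2 difference of the 27 shared regions, and capitals mark the site. Beside it stands an intron stretch of Fosl2 (plus strand, chr5:32306020-32306140), the 1 AP-1 gene region with a peak in every HADA list and no control list, in which none of the 3 motifs was found.
Fosb upstream region: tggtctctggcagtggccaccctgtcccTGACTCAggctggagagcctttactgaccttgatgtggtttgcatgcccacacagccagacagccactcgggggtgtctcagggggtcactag
Fosl2 intron region: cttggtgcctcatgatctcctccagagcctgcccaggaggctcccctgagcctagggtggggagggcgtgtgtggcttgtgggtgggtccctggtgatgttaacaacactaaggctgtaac

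Among all shared regions, 835 held TGACTCA or its complement near a summit, of which 32.1% were called lower and 16.2% higher in HADA, against 23.8% and 18.0% of those without it. Of the 234 shared regions with a serum response element, 40.6% were called lower and 14.1% higher, against 23.9% and 17.9% without it. Of the 249 with a cAMP response element, 10.0% were called lower and 13.2% higher, against 24.2% and 17.9% without it. These shares describe the lists, and a match of letters does not show that a factor was bound. They were not split by distance from a gene start, in which the motifs differ. Of all regions with a cAMP response element, 232 of 369 lay within 1 kb of a start. For the serum response element it was 139 of 595, for the AP-1 site 624 of 2541, and over all regions 20235 of 62876. Of shared regions within 1 kb of a coding gene start, 6.71% were called lower and 19.6% higher. The part of location in these shares was not tested.

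The height of a peak is given as the read pileup at its summit divided by the background pileup of the library. The background was 1.69 to 2.05 in the control and 1.99 to 2.34 in the HADA libraries, and the lists held 34045 to 41475 and 44044 to 45799 peaks on the main chromosomes. Heights were higher in HADA over the whole list: the median log2 difference of all shared regions was 0.34. The log2 differences below, with their standard errors and limma's adjusted p-values over all 23970 shared regions, are therefore from pileups centred on the median shared region of each library, unless heights over background are named. With 3 libraries against 3, an exact permutation test of a single value cannot give a p below 0.1.

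Of the 27 shared AP-1 gene regions, limma called 11 lower and 1 higher in HADA, and 15 were not called. Over all shared regions, 24.1% were called lower and 17.9% higher. The median log2 difference came to -0.44 over the 27 regions and -0.04 over all shared regions. Promoters give another background, since of 10724 shared regions within 1 kb of a coding gene start 6.71% were called lower and 19.6% higher, with a median of 0.12, and of the 10 AP-1 promoter regions 5 were called lower and 0 higher (1 higher at an unadjusted p under 0.05 by limma). Of these 10 promoters, 1 was called lower and 1 higher over background and 1 lower by fold rank, and without HADA 2 the 5 lower calls were lost (limma adjusted p = 0.0529 to 0.170). With heights over background instead of centred pileups, 6 regions were called lower and 3 higher, against 18.3% and 31.0% of all shared regions, and the median of the 27 was -0.06.

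The count of 11 lower calls depended on single libraries. Without HADA 2 limma called 2 of them lower, as against 8.58% of all shared regions, and without HADA 3 it called 5, as against 15.8%. The median of the 27 was -0.45 without HADA 2 and -0.40 without HADA 3, with 23 and 22 of the 27 below 0. It was -0.27 without control 3, with 19 below 0, and -0.64 without control 2. The regions 6762 bp upstream of Fosb and 1850 bp upstream of Fosl2 were called lower whichever library was left out. When regions were ranked by the authors' fold over the local background, limma called 2 AP-1 gene regions lower (the Fosb promoter and the Fosb region 6762 bp upstream) and 0 higher, against 4.79% lower and 6.57% higher of all shared regions. At an unadjusted p under 0.05 the fold rank had 3 lower and 3 higher of the 27, and 3696 lower and 4842 higher of all 23970. The median fold rank difference of the 27 was 0.0076, with 13 below 0. Fold ranks were turned into normal scores within each library, so fold rank differences are not on the log2 scale.

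**Figure D1:**
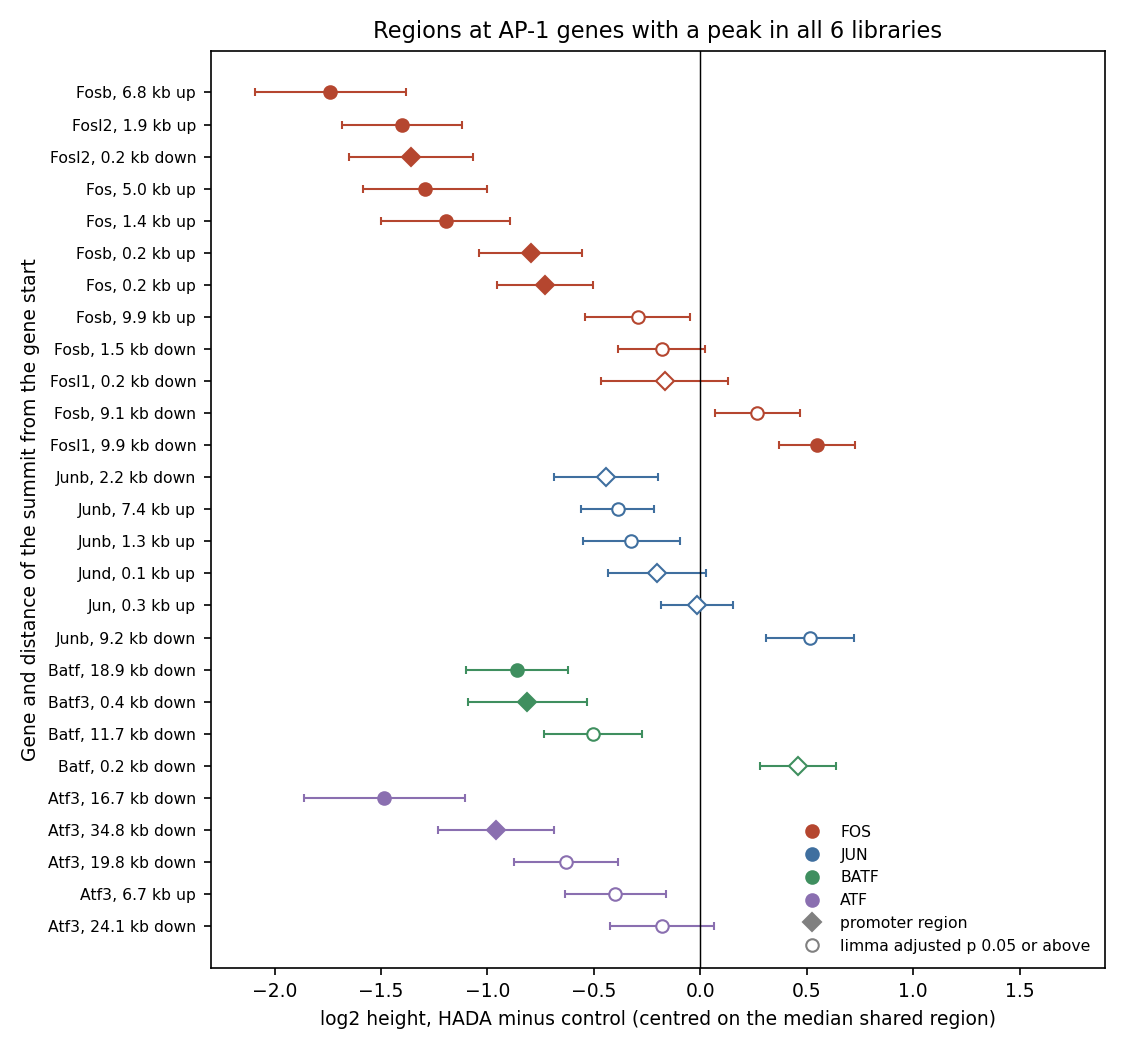
Log2 difference in summit pileup, HADA minus control, centred on the median shared region (x axis), for the 27 AP-1 gene regions with a peak in all 6 libraries (y axis, gene and distance of the summit up- or downstream of the gene start). Bars are standard errors, colours are subfamilies, diamonds are promoter regions and filled symbols have a limma adjusted p under 0.05; 7 of 12 FOS regions and 0 of 6 JUN regions were called lower.

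The cell types marked in these libraries moved between the groups as well. Promoter heights summed over 8 neutrophil markers were 138 to 353 in controls and 27.7 to 88.9 in HADA libraries, with 3 of the 3 shared promoters called lower (S100a8, Cxcr2 and Csf3r) and Camp without a peak. Over 6 monocyte markers the sums were 88.1 to 139 and 79.2 to 92.3, with 3 of 3 shared promoters called lower (Cd14, Cx3cr1 and Csf1r) and Ccr2 without a peak. Ly6c2 went the other way, at 23.7 and 14.6 in control 1 and control 2, no peak in control 3, and 41.9, 40.7 and 33.4 in HADA libraries. Of the B cell markers, the 3 shared promoters were called higher (Cd79b, Pax5 and Ms4a1), with log2 differences of 2.02 ± 0.41 for Pax5 and 1.97 ± 0.54 for Ms4a1 (limma adjusted p = 0.0115 and 0.0234).

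Sums over 7 T cell markers were 214 to 277 and 322 to 374, with 1 of 5 shared promoters called higher (Cd3e) and Cd3d, the tallest, at a centred log2 difference of -0.31 ± 0.24. These sums are heights over background, which were higher in HADA over all shared regions. Over 6 NK cell markers they were 11.5 to 42.7 and 42.3 to 58.9, with 0 of 1 called and no peak at Ncr1 or Klrb1c. Erythroid marker sums were 0 to 7.79 and 15.0 to 24.4 over 4 genes, with no peak at Alas2 or Klf1. The labelled white blood cells thus had open promoters of the main leukocyte types, while Epcam and Cdh5 of the 6 markers of other tissues also had peaks (sums 0 to 29.6 and 64.2 to 76.8) and Alb, Myod1, Neurod1 and Krt8 had none. The part of this change in cell markers in the AP-1 gene results was not tested.

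Of the 12 shared regions at the FOS members, 7 were called lower, 1 higher and 4 were not called, with a median log2 difference of -0.76, against 24.1% lower and 17.9% higher of all shared regions. The lower calls lay at Fos (3 of 3 regions), Fosb (2 of 5) and Fosl2 (2 of 2), and none lay at Fosl1. Relative to the background of the library, 5 of the 12 were called lower and 1 higher, against 18.3% and 31.0%. By fold rank 2 of the 12 were called lower, and without HADA 2 the centred fit called 2 lower.

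Fos encodes the founding FOS protein and is a standard marker of recent cell stimulation. Its promoter region (chr12:85519813-85521774, summit 218 bp upstream of the start, on the stretch printed above) was 286, 217 and 348 times the background in the control libraries and 259, 214 and 187 times in the HADA libraries. The groups overlapped, since control 2 lay below HADA 1, with means of 284 ± 65.3 and 220 ± 36.2 (SD, n = 3 each, exact permutation p = 0.2). Relative to the median shared region, the Fos promoter was lower in HADA by a log2 difference of -0.73 ± 0.23 (SE, limma adjusted p = 0.0352), and it ranked above 98.4% of shared regions in mean height. The call was lost without any 1 of the HADA libraries (limma adjusted p = 0.0624 to 0.117), and also over background (-0.35, limma adjusted p = 0.324) and with a replicate block (limma adjusted p = 0.0590). The fold rank had the opposite sign (0.31, limma adjusted p = 0.182).

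Both regions upstream of Fos fell further than its promoter in size of the estimate. At 5018 bp upstream (chr12:85515161-85516096) heights were 104, 85.2 and 140 in controls and 81.6, 53.7 and 42.2 in HADA libraries, so that every HADA library lay below every control library. The log2 difference there was -1.29 ± 0.29 (limma adjusted p = 0.0140). At 1416 bp upstream (chr12:85518892-85519512) heights were 139, 111 and 214 in controls and 114, 75.8 and 69.9 in HADA libraries. Only HADA 1 and control 2 overlapped there, and the log2 difference came to -1.20 ± 0.30 (limma adjusted p = 0.0190). The summit there lies 250 bp from an annotated start that is not one of Fos. The difference between promoter and upstream changes was not tested. The first call was lost without HADA 2 and the second without HADA 2 or HADA 3, with log2 differences of -1.53 to -1.04 and -1.38 to -0.88 when any 1 library was left out.

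Fosb encodes a FOS protein whose shorter splice form lacks the transactivation domain. Its promoter (chr7:19043943-19044416, summit 182 bp upstream) had heights of 166, 111 and 184 in controls and 145, 109 and 90.1 in HADA libraries. HADA 1 lay between control 2 and control 1, while HADA 2 and HADA 3 lay below all controls. The log2 difference came to -0.80 ± 0.24 (limma adjusted p = 0.0328), a call lost without control 1, control 3, HADA 2 or HADA 3 (limma adjusted p = 0.0507 to 0.116). It was also lost over background (-0.42, limma adjusted p = 0.237).

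The Fosb region with the AP-1 site, 6762 bp upstream, had heights of 134, 97.4 and 194 in controls and 85.0, 47.7 and 36.9 in HADA libraries. All HADA libraries lay below all control libraries, with a log2 difference of -1.74 ± 0.35 (limma adjusted p = 0.0117). It was called under each scaling, with a log2 difference of -1.36 over background (limma adjusted p = 6.44e-05). By fold rank the difference was -1.62 normal scores (limma adjusted p = 0.0325). The other shared Fosb regions were not called. The region 9920 bp upstream (chr7:19053405-19054344), the tallest of them, had heights of 143, 87.1 and 159 against 164, 124 and 117, overlapping groups and a log2 difference of -0.30 ± 0.25 (limma adjusted p = 0.359). Those 1493 bp and 9111 bp downstream of the start differed by -0.18 ± 0.20 and 0.27 ± 0.20. At the latter the heights of 67.1, 53.7 and 45.7 in HADA libraries lay above those of 35.5, 31.2 and 38.8 in controls. The summits 9920 bp upstream and 9111 bp downstream lie 360 and 170 bp from annotated starts that are not of Fosb.

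Fosl2 encodes FRA-2, a FOS protein without a strong transactivation domain. Its promoter (chr5:32292319-32293937, summit 220 bp downstream of the start in an untranslated exon) had heights of 227, 169 and 327 in controls and 155, 107 and 97.6 in HADA libraries. In height over background it was the 1 AP-1 promoter at which all HADA libraries lay below all control libraries (when centred, the Fos, Fosb, Batf3 and Atf3 promoters did so too), with means of 241 ± 80.2 and 120 ± 30.7 (SD, n = 3 each), a mean 50.2% lower (exact permutation p = 0.1, the smallest possible). The log2 difference came to -1.36 ± 0.29 (limma adjusted p = 0.0128) and -0.98 over background (limma adjusted p = 0.00409). The fold rank had the opposite sign, 0.06 (limma adjusted p = 0.799), and without HADA 2 the adjusted p by limma was 0.0529.

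At 1850 bp upstream of Fosl2 (chr5:32290475-32291101) heights were 74.6, 57.4 and 100 in controls and 47.0, 41.2 and 26.4 in HADA libraries, again without overlap. The log2 difference came to -1.40 ± 0.28 (limma adjusted p = 0.0114). The summit of this region lies 43 bp from an annotated start that is not one of Fosl2. Inside the gene, a region 3971 bp downstream of the start (chr5:32296023-32297207) had a peak in control 1 and control 3, at heights of 55.7 and 89.6, and in no HADA list. The intron region printed above (chr5:32305837-32306443) had small peaks of 8.12, 7.03 and 5.72 in the HADA libraries and none in control lists.

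Over all regions, 7.01% had a peak in all HADA lists and no control list, and 1.88% had the reverse, against 1 and 0 of the 33 AP-1 gene regions. The Fosl2 intron region dropped out when peaks needed a −log10 q-value of at least 5 or when the same number of strongest peaks was taken from each library. Its summit pileups were 19, 14 and 13 reads, against lowest pileups of 9, 8 and 8 reads in the same HADA lists.

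Fosl1 encodes FRA-1, a FOS protein best known from epithelial and stimulated cells. Its promoter (chr19:5497380-5498957, summit 42 bp from an annotated start) was lower than those of the other FOS members, at 56.9, 26.8 and 59.6 in controls and 64.5, 52.2 and 41.8 in HADA libraries. The groups overlapped in part, with control 2 the lowest and HADA 1 the highest, and the log2 difference came to -0.17 ± 0.30 (limma adjusted p = 0.674) when centred and 0.21 over background. The call higher in HADA belonged to a region 9886 bp downstream of the Fosl1 start that lies 140 bp from the start of another gene, Ccdc85b (chr19:5506845-5507889). Its heights were 78.8, 52.1 and 47.0 in controls and 111, 126 and 94.5 in HADA libraries, without overlap, with a log2 difference of 0.55 ± 0.18 (limma adjusted p = 0.0420). That call was kept without control 1 and lost without any 1 of the other libraries (limma adjusted p = 0.0641 to 0.166).

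**Figure D2:**
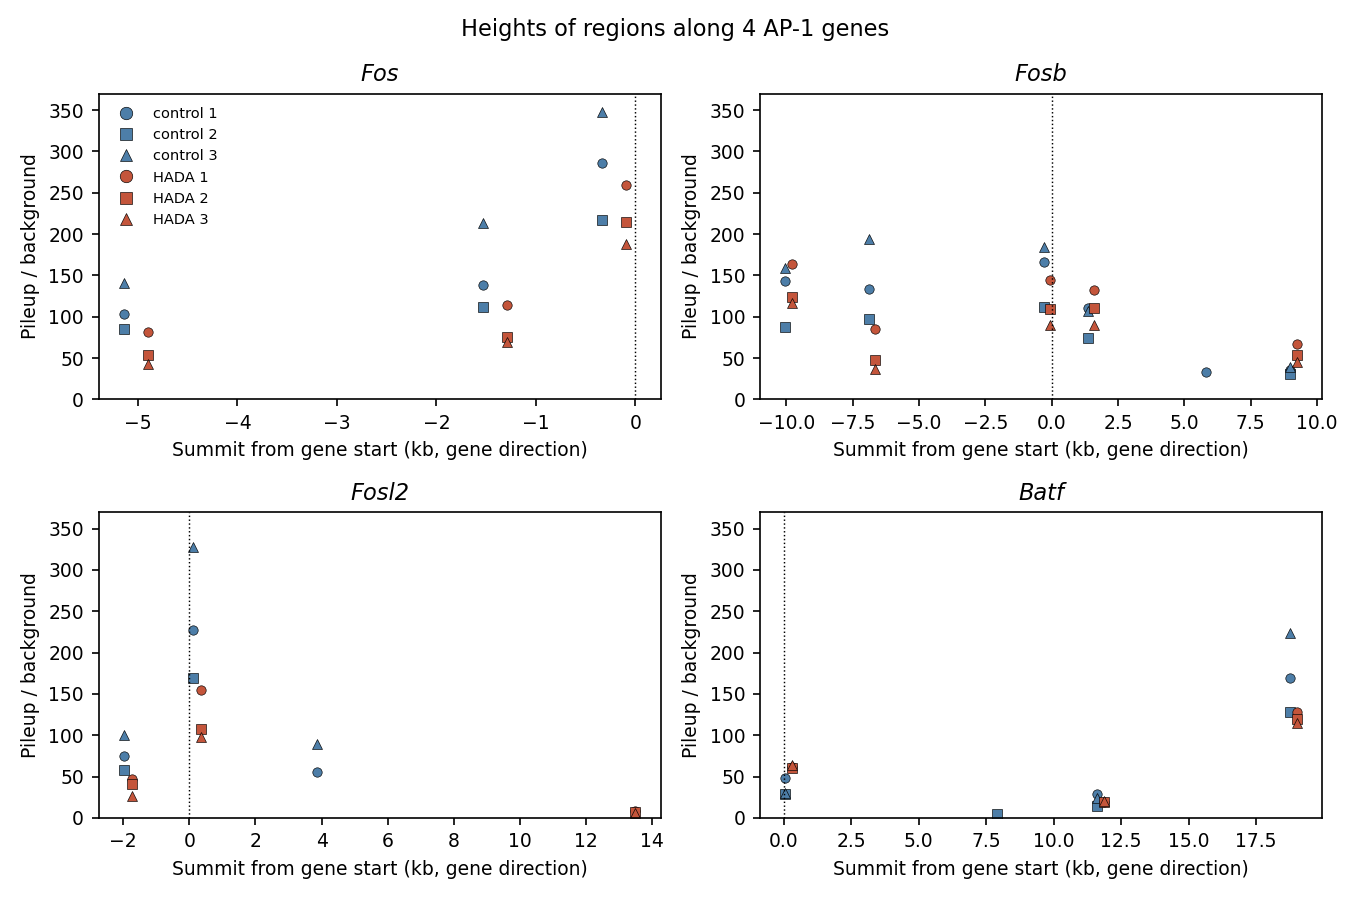
Heights (y axis, summit pileup over library background, from 0) of regions along Fos, Fosb, Fosl2 and Batf against the distance of the summit from the gene start (x axis, kb along the gene's direction, dotted line at the start); control points are drawn slightly left and HADA points slightly right of the true position. HADA points lie below all control points 5018 bp upstream of Fos, 6762 bp upstream of Fosb, and in both shared Fosl2 regions, and above them at the Batf promoter and 9111 bp downstream of the Fosb start.

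Of the 6 shared regions at the JUN members, limma called 0 lower and 0 higher, with 0 of the 3 promoters called, a median log2 difference of -0.26 and a range of -0.44 to 0.52. Of all shared regions 24.1% were called lower and 17.9% higher, and of shared coding gene promoters 6.71% and 19.6%. At an unadjusted p under 0.05 by limma, 1 of the 6 JUN regions was higher and 0 were lower, and the fold rank gave 0 calls in either direction. Over background 1 of the 6 was called higher, against 31.0% of all shared regions. The median of the 6 was then 0.11, so the sign for the JUN members turned with the scaling. The calls for FOS and JUN members were not compared by a test of region counts.

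Jun encodes c-Jun, the partner that FOS and BATF proteins most often take. It had 1 region by the rule, a broad one of 3476 bp from upstream of the start into the gene body (chr4:94938385-94941860), in which control 2 and control 3 had 2 peaks and each other library 1. The tallest summits gave heights of 207, 142 and 176 in controls and 251, 225 and 194 in HADA libraries. Control 1 lay between HADA 3 and HADA 2, and the means of 175 ± 32.3 and 224 ± 28.5 (SD, n = 3 each) had an exact permutation p of 0.2. Centred on the median region, the log2 difference came to -0.02 ± 0.17 (limma adjusted p = 0.944).

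Junb encodes a JUN protein that is a weaker activator than c-Jun. Its region within 1 kb of a start (chr8:85702333-85703458) has its summit 37 bp from the start of a shorter annotated transcript, inside the gene. Heights there were 218, 138 and 259 in controls and 209, 195 and 168 in HADA libraries, overlapping, with a log2 difference of -0.44 ± 0.24 (limma adjusted p = 0.173). A second region (chr8:85704019-85707061) covers the main start, and the median place of its tallest summit is 1291 bp upstream. The tallest summits of the libraries spread over 1428 bp there, so the heights compared may be of different places. Heights in this region were 200, 156 and 252 in controls and 221, 224 and 177 in HADA libraries, with a log2 difference of -0.32 ± 0.23 (limma adjusted p = 0.275). Neither region at Junb thus passed the test.

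The other Junb regions lie nearer to other genes. That 7375 bp upstream of Junb (chr8:85711928-85713121) had heights of 216, 166 and 215 in controls and 208, 204 and 179 in HADA libraries, a log2 difference of -0.39 ± 0.17 (limma adjusted p = 0.102). That 9241 bp downstream (chr8:85695800-85696630) lies 56 bp from a start of the gene model Gm49661. It rose from 38.5, 20.4 and 22.4 to 47.9, 57.2 and 41.3 when scaled by the background (0.89, limma adjusted p = 0.00896), while the centred value was 0.52 ± 0.21 (limma adjusted p = 0.0749). Without control 1 the centred difference was 0.68 (limma adjusted p = 0.0314).

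Jund encodes the JUN protein that is present in resting cells. Its promoter (chr8:71151025-71153672, summit 112 bp upstream, with the cAMP response element printed above) was the tallest of the family in the mean of HADA libraries and ranked above 99.1% of shared regions. Heights were 268, 207 and 341 in controls and 334, 310 and 262 in HADA libraries, which overlapped, and the log2 difference came to -0.20 ± 0.23 (limma adjusted p = 0.495). A small region 3459 bp upstream (chr8:71148015-71148478) was in the lists of control 3 and HADA 1, with heights of 82.0 and 96.1.

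**Figure D3:**
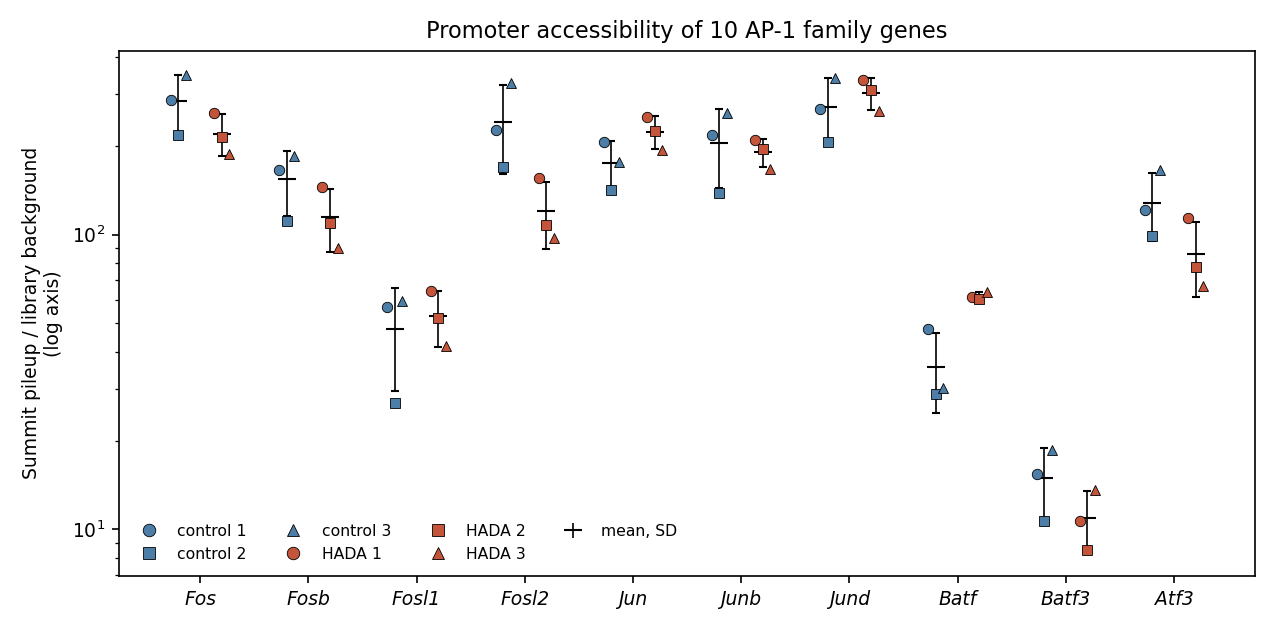
Height of the promoter region (y axis, summit pileup over library background, logarithmic) of each of the 10 AP-1 family genes (x axis) in 3 control (blue) and 3 HADA (red) libraries, with the mean and SD of each group in black and the symbol giving the replicate number. The groups are apart at Fosl2 (lower in HADA) and Batf (higher in HADA) and overlap at the other 8 genes.

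Of the 4 shared regions at the BATF members, limma called 2 lower, 0 higher and 2 not, with 1 higher at an unadjusted p under 0.05. The shares of all shared regions were 24.1% lower and 17.9% higher. Over background 1 of the 4 was called higher and 0 lower, against 31.0% and 18.3%, and by fold rank 0 were called. Batf encodes the AP-1 factor needed for the differentiation of several T and B cell subsets. Its promoter (chr12:85733039-85734231, summit 175 bp downstream of the start) had heights of 48.0, 28.7 and 30.1 in controls and 61.5, 60.3 and 63.8 in HADA libraries. Each HADA library exceeded each control library, with means of 35.6 ± 10.8 and 61.8 ± 1.77 (SD, n = 3 each), a mean 73.8% higher (exact permutation p = 0.1, the smallest possible). Such a separation was common: in 42.6% of all shared regions every HADA height was above every control height, and in 17.4% every one was below, against 4 and 4 of the 27 AP-1 gene regions.

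Centred on the median shared region, the Batf promoter difference was 0.46 ± 0.18 (limma adjusted p = 0.0684), and over background it was 0.84 (limma adjusted p = 0.0145). Without control 1 the centred difference was 0.57 (limma adjusted p = 0.0391). Within the gene, the region 18877 bp downstream of the start (chr12:85751558-85752819), in an intron and taller than the promoter, went the other way. Its heights were 169, 128 and 224 in controls and 129, 120 and 114 in HADA libraries. HADA 1 and control 2 were nearly level, and the log2 difference came to -0.86 ± 0.24 (limma adjusted p = 0.0248), a call lost without any 1 of the HADA libraries and over background (-0.48, limma adjusted p = 0.167). An intron region at 11733 bp (chr12:85744948-85745429) had heights of 14.1 to 29.0 and 18.8 to 20.2 and was not called (-0.50 ± 0.23, limma adjusted p = 0.111), and the 50 bases at its summit have 2 exact copies in the genome. Without control 2 it was called lower (-0.74, limma adjusted p = 0.0210). A peak at 8028 bp was in control 2 alone, at a height of 4.38.

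Batf3 encodes a factor required for cross-presenting dendritic cells, which are rare in blood. Its 1 region, the promoter (chr1:190829272-190830976), was the lowest of the family, at 15.4, 10.7 and 18.6 in controls and 10.7, 8.54 and 13.6 in HADA libraries. The groups overlapped, and the log2 difference came to -0.81 ± 0.28 (limma adjusted p = 0.0488). This call was lost without control 1, control 3, HADA 1 or HADA 2 (limma adjusted p = 0.0672 to 0.170), over background (-0.43, limma adjusted p = 0.218) and with a prior that follows the mean height (limma adjusted p = 0.0584).

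Atf3 had 5 shared regions, of which 2 were called lower and 3 were not called, and all 5 estimates were below 0 when centred. Of all shared regions 24.1% were called lower and 17.9% higher. Over background 1 of the 5 was called lower and 0 higher, against 18.3% and 31.0%, and by fold rank 0 were called. Its promoter region by the rule (chr1:190914621-190916159) lies at the start of a shorter annotated transcript, with the summit 57 bp away. Heights were 121, 98.8 and 165 in controls and 114, 77.8 and 66.8 in HADA libraries. HADA 1 lay within the control range, and the log2 difference came to -0.96 ± 0.27 (limma adjusted p = 0.0268), a call lost without HADA 2 or HADA 3 and over background (-0.58, limma adjusted p = 0.0939).

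An intron region 16673 bp downstream of the outer Atf3 start (chr1:190933055-190934022) had heights of 62.2, 50.1 and 89.1 in controls and 54.7, 23.6 and 21.5 in HADA libraries. HADA 2 and HADA 3 lay far below the controls and HADA 1 within their range, with a log2 difference of -1.49 ± 0.38 (limma adjusted p = 0.0194). It was not called without control 3, HADA 2 or HADA 3, where the difference was -1.88 to -1.20 over all libraries left out in turn. The tallest Atf3 region, 6718 bp upstream (chr1:190956321-190957584), had heights of 201, 136 and 234 in controls and 219, 183 and 153 in HADA libraries and was not called (-0.40 ± 0.24, limma adjusted p = 0.202). Its summit lies 207 bp from an annotated start that is not one of Atf3. The Atf3 regions at 19843 and 24137 bp differed by -0.63 ± 0.24 and -0.18 ± 0.24 and were not called.

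The promoters of Fos, Jun and Batf were compared as ratios of summit pileups within each library, which need no scaling between libraries. The Fos promoter was 1.38, 1.53 and 1.98 times as high as the Jun promoter in control libraries and 1.03, 0.953 and 0.964 times in HADA libraries. Every HADA ratio lay below every control ratio, with mean log2 ratios of 0.69 ± 0.26 and -0.03 ± 0.06 (SD, n = 3 each). The ratio of Fos to Batf was 5.96, 7.56 and 11.6 in controls and 4.21, 3.56 and 2.94 in HADA libraries. That of Jun to Batf was 4.31, 4.95 and 5.85 in controls and 4.08, 3.73 and 3.05 in HADA libraries.

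All 3 ratios were thus lower in each HADA library than in each control library, by log2 differences of -0.71 for Fos to Jun, -1.19 for Fos to Batf and -0.48 for Jun to Batf. Each had an exact permutation p of 0.1, the smallest possible, and 0.1 after Benjamini-Hochberg adjustment over the 3. A ratio within a library shows unequal change and not which of the promoters changed. Taken from the fold over the local background instead of the pileup, the log2 differences were 0.30 for Fos to Jun (exact permutation p = 0.1, again the smallest possible) and 0.07 for Fos to Batf, so that both changed sign, and -0.23 for Jun to Batf.

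**Figure D4:**
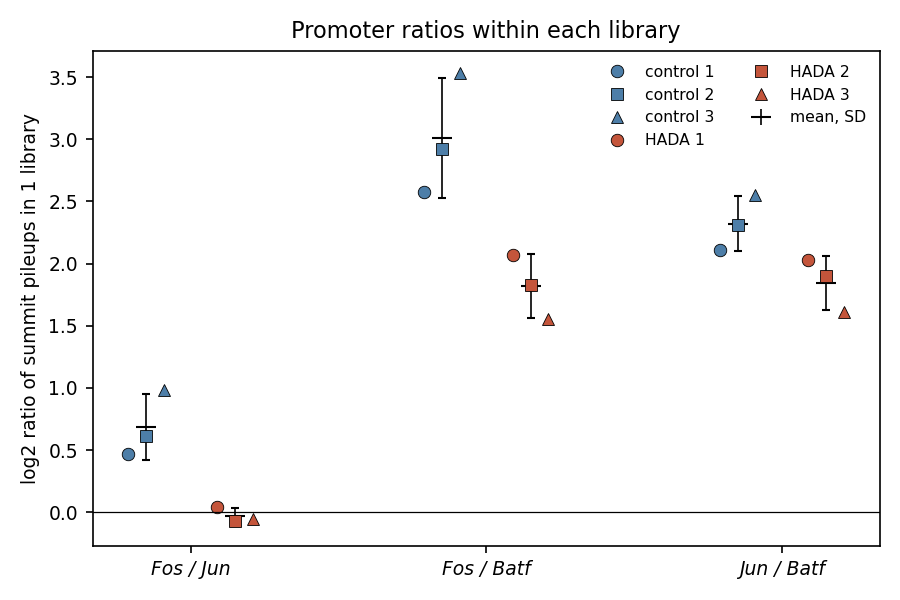
Log2 ratio of the promoter summit pileups of Fos to Jun, Fos to Batf and Jun to Batf within each library (y axis), for 3 control (blue) and 3 HADA (red) libraries, with mean and SD in black. In each pair the 3 HADA ratios lie below the 3 control ratios, and the HADA ratios of Fos to Jun lie near 0, which means equal pileups.

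The number of peaks at the 10 genes hardly differed between libraries. It was 31, 31 and 30 in controls and 30, 29 and 29 in HADA libraries (30.7 ± 0.577 and 29.3 ± 0.577, SD, n = 3 each, exact permutation p = 0.2). Per 10000 peaks of the library it was 7.47, 7.52 and 8.81 in controls and 6.76, 6.58 and 6.33 in HADA libraries, without overlap (exact permutation p = 0.1). This share follows the length of the lists, since Fos, with 3 peaks in every library, was also without overlap per 10000 peaks. Beside the 2 Fosl2 regions and the region upstream of Jund, 3 regions were in single lists, at Fosb (control 1), Batf (control 2) and Atf3 (control 1).

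Companion genes of the AP-1 pathway were read at their promoters (the tallest region with a summit within 1 kb of a start), and their counts stand beside the 6.71% lower, 19.6% higher and median of 0.12 of all shared coding gene promoters. Of 12 partners and related leucine zipper or DNA-binding factors, 12 had a promoter region in all libraries, of which 1 was called higher and 2 lower, with a median log2 difference of -0.22. Irf4, which binds DNA together with BATF and JUN proteins, rose from 34.4, 27.8 and 9.84 to 74.3, 79.8 and 73.0 (1.47 ± 0.38, limma adjusted p = 0.0205). Irf8, which pairs with BATF proteins likewise, had heights of 33.8, 27.3 and 14.8 against 50.9, 49.2 and 55.4 and was not called (0.74 ± 0.26, limma adjusted p = 0.0525). Jdp2, a repressor of AP-1 sites, fell by 1.19 ± 0.32 on the log2 scale (limma adjusted p = 0.0229), and Mafg, a small MAF protein, fell by 0.94 ± 0.20 (limma adjusted p = 0.0126).

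Of 13 MAP kinases and MAP kinase kinases, 13 had a shared promoter region, 2 were called higher and 1 lower, with a median of 0.04. Map2k6, which activates p38 kinases, rose by 1.36 ± 0.23 (limma adjusted p = 0.00927) and Mapk11, the beta form of p38, by 1.17 ± 0.28 (limma adjusted p = 0.0160). Mapk13, the delta form of p38, fell by 1.29 ± 0.22 (limma adjusted p = 0.00951). Mapk8, which encodes the JUN kinase JNK1, had a difference of 0.38 ± 0.15 and was not called (limma adjusted p = 0.0759).

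Of 7 MAP kinase phosphatases, which switch the kinases off, 6 had a shared promoter region and Dusp6 had none, with 1 called higher, 1 lower and a median of 0.05. Dusp10 rose by 0.56 ± 0.19 (limma adjusted p = 0.0447) and Dusp1, itself an immediate early gene, fell by 0.75 ± 0.26 (limma adjusted p = 0.0496). The Dusp1 groups overlapped in height over background, at 351, 266 and 484 in controls and 332, 266 and 235 in HADA libraries. Dusp2 and Dusp4 had estimates of 0.42 ± 0.16 and 0.50 ± 0.23 and were not called.

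Of 8 factors that act on AP-1 gene promoters, 1 was called higher and 0 lower, with a median of -0.11 and 0 lower also at an unadjusted p under 0.05 by limma. Elk3, a cofactor of serum response factor, rose by 0.76 ± 0.23 (limma adjusted p = 0.0315), while Crtc2, Crem and Elk1 had -0.26 ± 0.17, -0.29 ± 0.19 and 0.20 ± 0.16 and were not called. The gene of serum response factor, Srf, was chosen after its values were seen, for the motif above, and had heights of 141, 89.1 and 138 in controls and 142, 135 and 119 in HADA libraries and was not called (-0.25 ± 0.20, limma adjusted p = 0.335).

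Of 8 other immediate early genes, 7 had a shared promoter region, of which limma called 3 lower and 0 higher, with a median of -0.50 and 0 higher also at an unadjusted p under 0.05. Ier3 fell by 1.16 ± 0.27 (limma adjusted p = 0.0157), Egr3 by 0.58 ± 0.20 (limma adjusted p = 0.0474) and Nr4a1, the orphan nuclear receptor induced by antigen receptors, by 0.50 ± 0.15 (limma adjusted p = 0.0323). In height over background the groups overlapped at Egr3, at 72.3, 50.1 and 76.5 in controls and 58.1, 56.7 and 55.4 in HADA libraries. They also overlapped at Nr4a1, at 118, 86.2 and 90.7 in controls and 94.4, 93.9 and 80.0 in HADA libraries. Egr1 had no peak within 1 kb of a start, so that its value could not be compared. The counts of these companion lists are descriptions, and no list was tested as a set. Companion calls are from the centred fit alone, and their results by other scalings or with a library left out are not given. In height over background the groups overlapped at Jdp2, Dusp1, Egr3 and Nr4a1 and were apart at the other called companion genes.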

How the data were processed

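Peak lists of 3 control and 3 HADA ATAC-seq libraries from mouse blood leukocytes were analysed. The study's methods do not state how many mice gave each library. Per the submitters' processing notes, reads were checked with FastQC, trimmed with Trimmomatic, aligned with Bowtie2 to GRCm39 and freed of duplicates with Picard, and peaks were called with MACS2. Versions, MACS2 options and any shift for the Tn5 insertion are not given in the sources used here. Each library was called by itself. The deposited lists give each peak's fold enrichment at the summit over the local background, as a ratio, with a −log10 p-value and a −log10 q-value from the authors' peak caller.

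From the fold and −log10 p-value the summit pileup was solved for 100% of peaks. Total read counts were not analysed here; the background pileup of 1.69 to 2.34 stands for relative depth, and low peaks carry the larger counting error. A summit is the start plus the offset of the peak. Genes came from the GENCODE annotation of GRCm39. Regions with a peak in all libraries were compared with limma 3.58.1 in R 4.3.3 on log2 pileups centred on the library median, two-sided, with Benjamini-Hochberg adjustment over all shared regions at 0.05. The script was tested on simulated data. For single values an exact permutation test of the group means was used, two-sided (scipy 1.17.1). Regions were read with pysam 0.24.0. Groups and replicate numbers are those of the labels, which name separate libraries; p-values measure the spread between them. Same-numbered libraries did not deviate together.

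All members were named, with each promoter (tallest summit within 1 kb of a start), each called or group-only region and the tallest other region of each gene, and from each companion list up to 4 genes with the smallest p; Srf and Ly6c2 were added after their values were seen, as were other markers named for having or lacking a peak. The members and lists were chosen with earlier results of these data known. Alternatives were the scaling, the fold rank, another limma prior, a replicate block, a −log10 q limit, joining summits within 150 bp, windows of 3 and 50 kb, and each library left out. The B cell marker sum is not reported here.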

Additional observations from a re-analysis of the deposited data

How the results depend on the processing

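Of the AP-1 gene results, the call of the Fosb region 6762 bp upstream held under every scaling, prior, block and omission run. Lower calls numbered 11 of 27, and 6 over background, 2 by fold rank (4.79% of all shared regions), 22 of 70 with a 50 kb window and 2 to 12 with a library left out. Higher calls numbered 1 of 27, and 3 over background, 0 by fold rank, 0 of 19 with a 3 kb window, 7 of 70 with a 50 kb window and 0 to 3 with a library left out. With the replicate block, although numbers did not pair the libraries (r of -0.08, 0.08 and -0.38 for same-numbered pairs), 10 regions were lower and 0 higher. Promoter heights over background were also compared as the log2 ratio of the group means, which is not the mean log2 difference given above. This ratio changed sign on centring for Fosl1 (0.15 to -0.23), Jun (0.35 to -0.019) and Jund (0.15 to -0.24). With a library left out it was -0.14 to 0.34 for Fosl1 (-0.02 without HADA 1), -0.32 to 0.10 for Junb and -0.011 to 0.35 for Jund. By fold rank the Fos and Fosl2 promoters differed by 0.31 and 0.059 normal scores. The Fos to Jun and Fos to Batf log2 ratios differed by 0.30 and 0.070 by fold. The difference in peak number, -1.33, became 3 with a 50 kb window. Regions in HADA lists alone numbered 1, then 0 with a −log10 q of at least 5, 0 with equal numbers of strongest peaks and 5 within 50 kb; those in control lists alone numbered 0, then 1 within 50 kb and 0 to 1 with a library left out (1 without control 2). The cause of these changes was not tested. Joining summits within 150 bp was not run for the Jun and Atf3 promoters and the Jun ratios, since it gave no promoter region shared by all libraries. With 3 libraries a group, exact tests could not pass 0.05, and read totals were not analysed, so depth beyond the background pileup sets an unknown limit on low peaks.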
